A study of Homo sapiens with 2 samples.

Results

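RNA from PC3 cells stably overexpressing miR-95 was compared with RNA from PC3 cells stably overexpressing a control microRNA, and 53 genes of the extracellular matrix and its cell-surface partners were examined among 13864 measured genes. PC3 is an established human prostate cancer line. The members were matched by gene symbol, under a list set with earlier results of these data known. The list names collagens, laminins, lysyl oxidases, fibronectin, fibrillins, fibulins, thrombospondins, tenascins, matrilins and nidogens. It also names matrix proteoglycans, glypicans, syndecans, hyaluronan synthases, CD44 and the collagen hydroxylases. The members were read by 54 probe sets, since GPC1 had a pair and every other member had 1. Of the 53 members, 49 are protein-coding and 4 are antisense RNAs, noncoding RNAs or a pseudogene.

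Each group holds 1 array, the medium of both lines contained serum, and the labels do not say whether a line is 1 clone or a pool. No difference below therefore has a replicate error or a test. Values for each array are log2 expression as deposited. Differences and folds are miR-95 minus control after each array was centred on its median over genes (7.495 in miR-95 cells and 7.460 in control cells), which lowers every difference by 0.035. Because total RNA was measured in bulk, fewer cells carrying a transcript and less of it per cell cannot be told apart.

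The name of a collagen and laminin group is wider than what the symbols used here cover. No probe set used here named a laminin chain, a fibrillar collagen, a basement membrane collagen, a SPOCK proteoglycan, periostin, a prolyl 4-hydroxylase or a lysyl hydroxylase. The collagen symbols were COL26A1 and the noncoding COL18A1-AS1, both dim. Of 23641 probe sets, 9553 had no symbol here, so a missing name does not show that the array lacks the gene. The genes are therefore called matrix genes here, and most of what follows concerns linker proteins, cross-linking enzymes, glycoproteins, proteoglycans and hyaluronan.

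The extracellular matrix is a secreted meshwork that surrounds cells and to which they attach. Nidogens and the heparan sulfate proteoglycans perlecan and agrin hold basement membranes together, lysyl oxidases cross-link collagen and elastin, and fibrillins and fibulins build elastic fibres. Hyaluronan, a large sugar polymer made at the plasma membrane by the HAS enzymes, binds the surface receptor CD44. Syndecans and glypicans carry heparan sulfate chains on the cell surface and present growth factors. Carcinoma cells make part of this matrix themselves, while stromal fibroblasts make much of the fibrillar collagen, decorin and lumican in tissue.

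MicroRNAs pair with messenger RNAs mainly through bases 2 to 8, the seed. Both mature products of the miR-95 hairpin are shown because this RNA is what the lines differ in and the labels do not say which arm was raised. They are from RefSeq (GRCh38.p14), 5′ to 3′, with the seed in capitals, and lie on the minus strand at chr4:8005312-8005333 for the 3p arm and chr4:8005347-8005367 for the 5p arm.
hsa-miR-95-3p: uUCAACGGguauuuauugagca
hsa-miR-95-5p: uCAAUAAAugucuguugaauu
The capitals of the arms differ, so messenger RNAs paired by one seed need not be paired by the other. Seed pairing of the matrix genes was not examined.

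MiR-95 itself was named by no probe set used here, so its level was not checked. Of 10 epithelial or PC3-expressed markers, 8 were named by a probe set and all 8 were detected. Among them were KRT8 (7.81 in miR-95 cells and 7.91 in control cells) and VIM (9.55 and 9.53). Differences of the 8 ran from -0.325 to 0.195, and the lowest was that of CD44, itself a matrix gene here. Of 7 listed genes absent or lost in PC3 cells, 2 were named. These were KLK2 and KLK3, androgen-driven genes that PC3 cells are known not to express, and both were below the limit on both arrays. Of 14 fibroblast and smooth muscle markers, 4 were named and 0 were detected. Of 11 endothelial and blood markers, 5 were named and 3 were detected, namely CD68, CLDN5 and KDR, while VWF and CD14 were below the limit. CD68 differed by 0.105 and CLDN5 by 0.115. KDR read 8.28 in miR-95 cells and 7.96 in control cells, 1.22-fold higher. The dim VWF and CD14 differed by -0.025 and -0.045. The part of these markers in any difference was not tested.

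A gene was counted as detected when it reached the array's median on at least 1 array. This kept 25 of the 53 matrix genes and 7081 of all genes. Among the 25 are EFEMP2 and THBS3, which reached the median on the miR-95 array only, and HAS2, which reached it on the control array only. These genes passed through the array on which they are higher, so counts over the 25 are descriptions and are not offered as support for a change.

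Matrix genes did not move together. Of the 25 detected, 4 were at least 1.2-fold higher on the miR-95 array (0.263 on the log2 scale), namely NID1, GPC4, LOXL2 and HAS3, and 3 were at least 1.2-fold lower, namely HAS2, SDC4 and CD44. The other 18 passed neither limit. Set against these 4 and 3 of 25 is a background, over every detected gene of the arrays, of 5.48% past 1.2-fold upwards and 8.45% past it downwards. At 1.5-fold there was 1 matrix gene each way, NID1 and HAS2, against a background of 0.395% higher and 0.861% lower. With so few members, 1 gene more or less shifts a share by several points.

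The differences of the 25 ran from -0.645 to 0.655 with a median of 0.035, while the median of all 7081 detected genes was -0.035. Positive differences numbered 14 and negative ones 11, so 44.0% were negative, against 59.4% of all detected genes. As a yardstick of measurement, differences (miR-95 minus control) of probe sets of the same gene were compared over the 68 detected genes that had more than 1. The median gap within a gene, scaled to a single probe set, gave a robust SD of 0.126. This is called a spread here, and the gap between probe sets is wider. Differences of 17 of the 25 lay within 2 such spreads (0.252). The share of all detected genes within 2 spreads was not taken. At the nearby limit of 1.2-fold, 6095 of all 7081 detected genes passed neither way, against 18 of the 25. This yardstick holds no variation between cultures.

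**Figure D1:**
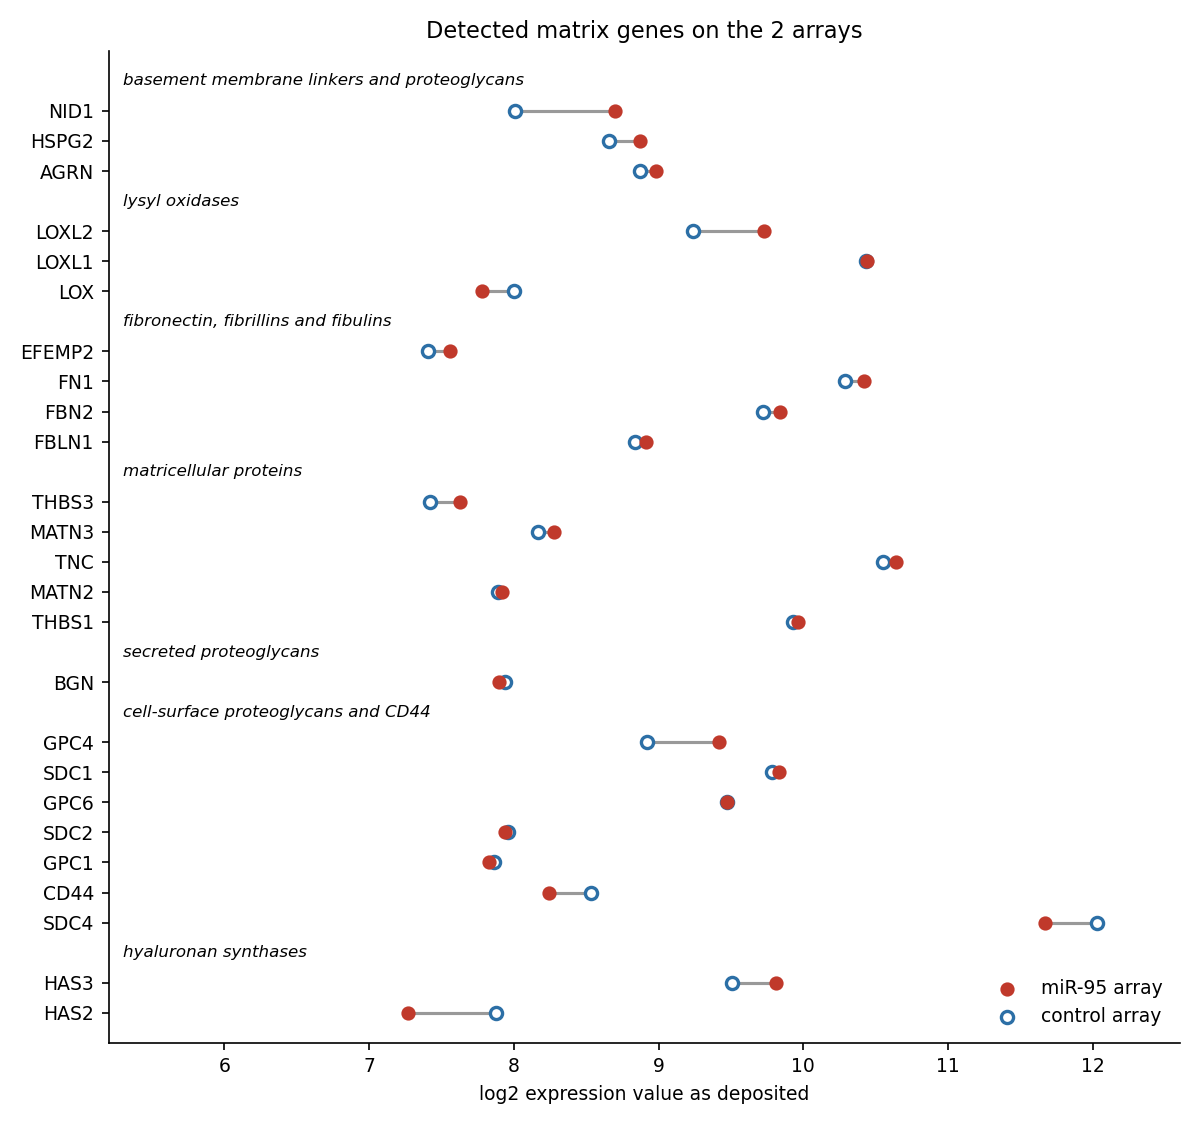
Log2 expression as deposited (x axis) of the 25 detected matrix genes by role, with the miR-95 array as filled red points and the control array as open blue points; only points on the same line can be compared. NID1, LOXL2, GPC4 and HAS3 lie clearly to the right on the miR-95 array and HAS2, SDC4 and CD44 to the left. HSPG2 and THBS3 lie less far to the right and LOX less far to the left, while the points of most others nearly coincide.

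Among the basement membrane genes, the linker NID1 stood out. NID1 encodes nidogen 1, which bridges laminin and collagen IV networks. It read 8.70 in miR-95 cells and 8.01 in control cells, 1.57-fold higher after centring, and ranked 17th from the highest of the 7081 detected genes. The signal was above the array median on both arrays.

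The other basement membrane genes were closer together on the arrays. HSPG2, which encodes perlecan, read 8.87 in miR-95 cells and 8.66 in control cells, a difference of 0.175. AGRN, which encodes agrin, read 8.98 and 8.87 in the same order, a difference of 0.075. Both lie within 2 spreads of a single probe set. NID2, the paralog of NID1, was below the detection limit at 6.41 in miR-95 cells and 6.24 in control cells. All 4 genes of this role had positive differences, and only NID1 passed 1.2-fold.

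The lysyl oxidases went different ways. LOXL2, a secreted lysyl oxidase that cross-links collagen IV among other substrates, read 9.73 in miR-95 cells and 9.24 in control cells, 1.37-fold higher. LOX, the founding member of the family, read 7.78 in miR-95 cells and 8.0 in control cells, a difference of -0.255 that is just short of 1.2-fold. LOXL1, which acts on elastin, was at 10.44 and 10.43, a difference of -0.025. LOXL3 (0.215) and LOXL4 (-0.035) were below the detection limit. The difference between the LOXL2 and LOX shifts was not tested.

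Among detected genes, the hyaluronan synthases had the widest range of differences within a role. HAS2, which makes long hyaluronan chains, read 7.27 in miR-95 cells and 7.88 in control cells, 1.56-fold lower, and its rank from the low end of the detected genes was 40. Its miR-95 value lay below that array's median of 7.495. HAS3, a synthase that makes shorter chains, read 9.81 in miR-95 cells and 9.51 in control cells, a difference of 0.265 that only just passed 1.2-fold. No probe set used here named HAS1.

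HAS2-AS1, the antisense RNA transcribed from the HAS2 locus, was also lower, at 6.81 in miR-95 cells and 7.20 in control cells. Its difference of -0.425 comes from values below the detection limit. The spans of the pair overlap by 2095 bases on chromosome 8 in RefSeq. Signal shared between them was not tested.

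CD44, the hyaluronan receptor, read 8.24 in miR-95 cells and 8.53 in control cells, 1.25-fold lower. CD44 is spliced into many isoforms, and its single probe set gives no isoform. HMMR, another hyaluronan-binding protein that also acts at the mitotic spindle, read 9.82 in miR-95 cells and 10.08 in control cells, 1.23-fold lower. Of the genes of hyaluronan breakdown, 4 of 9 were named and 2 detected, HYAL2 (0.115) and CEMIP2 (0.095), and 0 passed 1.2-fold. The hyaluronidase-like CEMIP was dim and differed by 0.445.

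Among heparan sulfate carriers, GPC4 and SDC4 differed in opposite directions. GPC4, a lipid-anchored glypican, read 9.42 in miR-95 cells and 8.92 in control cells, 1.38-fold higher, and ranked 65th from the highest. SDC4, a transmembrane syndecan of focal adhesions, read 11.67 in miR-95 cells and 12.03 in control cells, 1.31-fold lower, and ranked 196th from the lowest. Both genes were above the array median on both arrays.

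The remaining carriers differed little. SDC1 differed by 0.015, SDC2 by -0.055 and GPC6 by -0.035. GPC1 differed by -0.065 as the mean of its probe sets, which disagreed in sign. One of them read 8.52 in miR-95 cells and 8.45 in control cells, and the other read 7.14 and 7.27 in the same order. Below the limit were GPC2 (0.135), GPC3 (-0.015), GPC5 (-0.015), SDC3 (0.015) and the pseudogene SDC4P (0.025). SDC4P, a copy related in sequence to SDC4, read 4.84 in miR-95 cells and 4.78 in control cells. Values so far below the array medians cannot show whether SDC4P shares the -0.395 of SDC4.

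Fibronectin and the elastic fibre genes were close to level on the arrays. FN1, the main cell-adhesive glycoprotein, read 10.42 in miR-95 cells and 10.29 in control cells, a difference of 0.095. FBN2, a fibrillin, differed by 0.085, FBLN1 by 0.035 and EFEMP2, a fibulin needed for elastic fibres, by 0.115. All 4 detected genes of this role were positive and 0 passed 1.2-fold. Their differences are each smaller than the 0.126 spread of a single probe set.

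FBN1, the major fibrillin of microfibrils, lay just outside the detection rule, at 7.47 in miR-95 cells and 7.08 in control cells. Its difference of 0.355, or 1.28-fold, passed the limit among dim genes. The other dim genes of this role ran from FBLN2 and FBLN7, each at -0.045, to FBN3 at 0.045, with FBLN5 at 0.035 and EFEMP1 at 0.025.

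Genes of the matricellular role, in which the matrilins are also placed here, were close to level. THBS1, thrombospondin 1, read 9.96 in miR-95 cells and 9.93 in control cells, a difference of -0.005. TNC, tenascin C, read 10.64 and 10.55 in the same order, a difference of 0.055. THBS3 had the largest difference of this role at 0.175, and the matrilins MATN3, of cartilage, and MATN2 were at 0.075 and -0.005. Of the 5 detected genes 0 passed 1.2-fold. The dim members were ECM1 (0.125), THBS2 (0.005), TNXB (-0.015), MATN4 (-0.035), SPP1 (-0.095), SPARCL1 (-0.155) and THBS4 (-0.155).

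**Figure D2:**
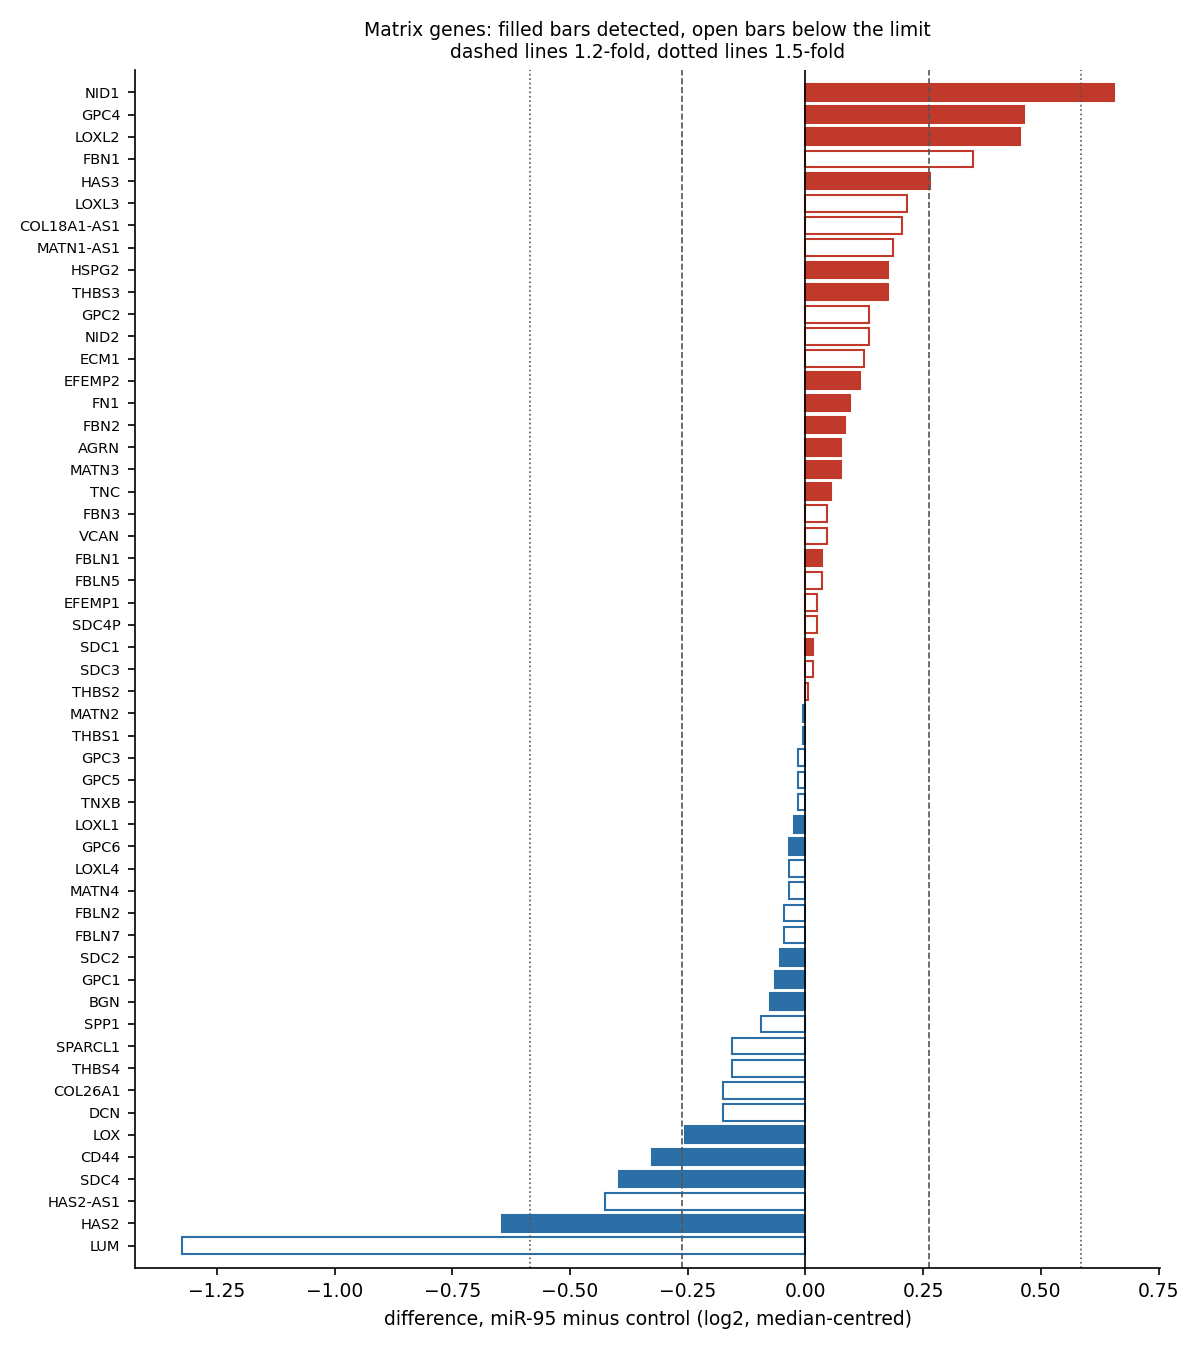
Difference, miR-95 minus control, in median-centred log2 units (x axis) for each of the 53 matrix genes, filled where detected and open where below the limit, with dashed lines at 1.2-fold and dotted lines at 1.5-fold. Of the 25 filled bars 4 pass the dashed line upwards and 3 downwards, and the open bar of LUM reaches -1.325.

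LUM had the lowest difference of all 13864 measured genes. LUM encodes lumican, a small leucine-rich proteoglycan of collagen fibrils. It read 6.04 in miR-95 cells and 7.33 in control cells, 2.51-fold lower after centring, with both values below the array medians. Dim genes scatter more than detected ones, with a robust SD of 0.193 over 6783 genes below the limit, against 0.148 over detected genes. LUM was read by a single probe set, and its difference was -1.01 once an offset of 32 was added on the linear scale, the alternative that moved it most.

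LUM also stands in the list of fibroblast and smooth muscle markers, of which 4 of 14 were named. All 4, LUM included, were below the limit on both arrays and had negative differences after centring. DCN, which encodes decorin and neighbours LUM on chromosome 12 at a distance of 28989 bases, read 2.76 in miR-95 cells and 2.90 in control cells. THY1 read 6.58 and 6.67 and DES 6.47 and 6.46 in the same order. The differences of DCN, THY1 and DES were -0.175, -0.125 and -0.025. Each is smaller in size than the robust SD of 0.193 over dim genes, and that of DES is negative only after centring. The part of these markers in the LUM difference was not tested.

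Of the other secreted proteoglycans, BGN (biglycan) was detected and differed by -0.075, and VCAN (versican) was dim and differed by 0.045. Of the 28 matrix genes below the limit, 14 were positive and 14 negative. At 1.2-fold, 1 was higher (FBN1) and 2 were lower (LUM and HAS2-AS1), against 7.71% higher and 11.4% lower over all dim genes. At 1.5-fold, 0 were higher and 1 lower, against 0.457% and 0.988%. COL26A1 differed by -0.175, COL18A1-AS1 by 0.205 and MATN1-AS1 by 0.185.

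**Figure D3:**
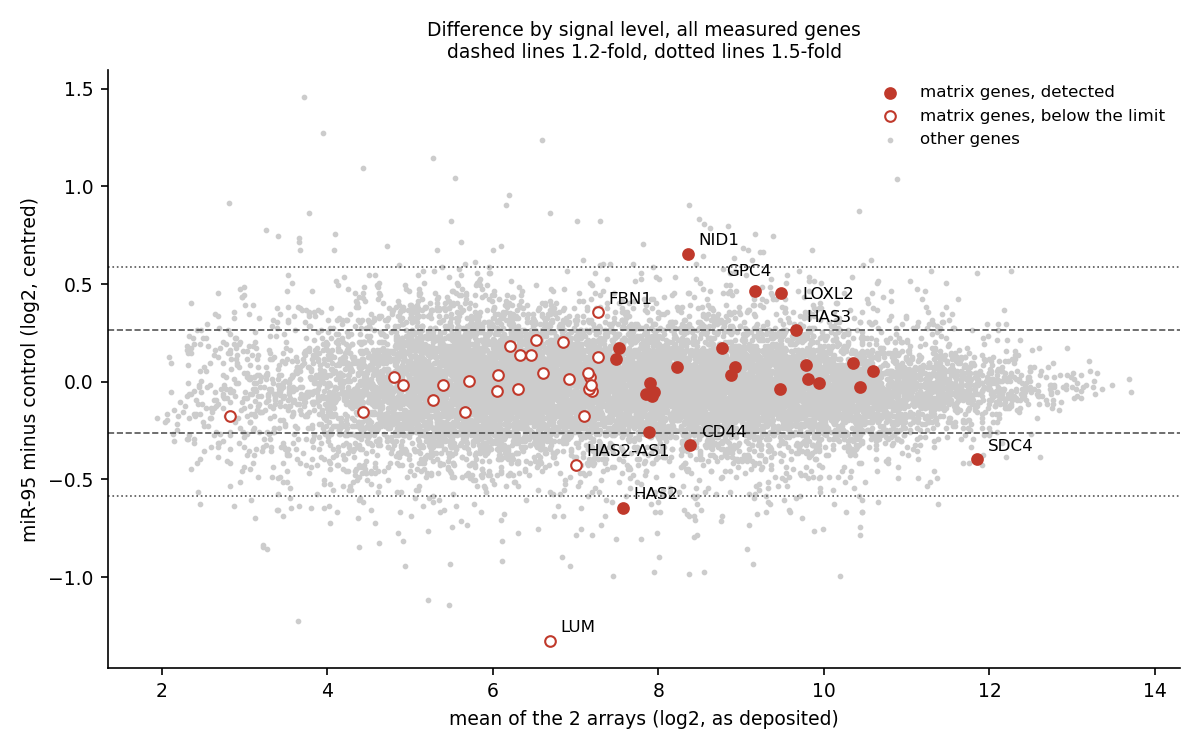
Difference, miR-95 minus control, in centred log2 units (y axis) against the mean of both arrays as deposited (x axis), with detected matrix genes filled red, dim ones open and all other measured genes in grey. NID1 lies above the dotted 1.5-fold line, HAS2 and LUM lie below it, and LUM is the lowest point of the plot.

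Of the members, 8 pairs lie within 500 kb of each other on a chromosome. GPC4 (0.465) and GPC3 (-0.015) lie 120255 bases apart on the X chromosome. SDC4 (-0.395) and MATN4 (-0.035) lie 16603 bases apart on chromosome 20, one of several places where a syndecan and a matrilin are linked. SDC1 (0.015) and MATN3 (0.075) on chromosome 2, and GPC5 (-0.015) and GPC6 (-0.035) on chromosome 13, each differed by less than 0.1. SDC3 (0.015) and MATN1-AS1 (0.185) lie on chromosome 1. Both members were negative in the pairs SDC4 and MATN4, and GPC5 and GPC6. The same held for the dim pairs LUM and DCN (-1.325 and -0.175) and SPARCL1 and SPP1 (-0.155 and -0.095), and for the overlapping pair HAS2 and HAS2-AS1.

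Differences over all detected genes declined with the genomic length of the gene, with a median of 0.035 in the shortest of 10 equal classes of span and -0.075 in the longest. Detected matrix genes had a median span of 36.0 kb, against 29.4 kb over all detected genes. The highest 3 members were long genes. NID1 (89261 bases), LOXL2 (107224 bases) and GPC4 (115387 bases) fall in a class of span whose median was -0.075. Relative to that median their differences were 0.73, 0.53 and 0.54. Relative to their own classes HAS2 was at -0.62, SDC4 at -0.37 and CD44 at -0.25, the last now short of 1.2-fold. The median of the 25 on this scale was 0.09, against 0 over all detected genes by construction.

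**Figure D4:**
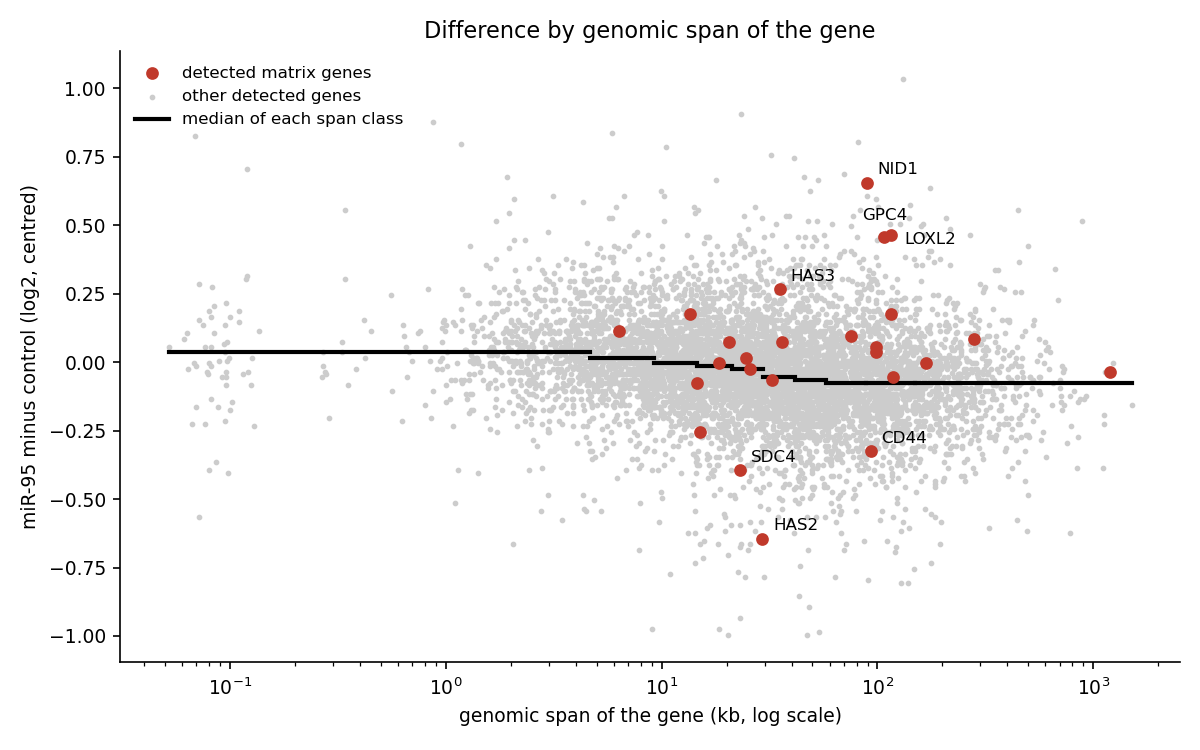
Difference, miR-95 minus control, in centred log2 units (y axis) against genomic span in kb on a log scale (x axis), with the 25 detected matrix genes in red, other detected genes in grey and the median of each of 10 classes of span as black lines. NID1, GPC4 and LOXL2 lie far above the line at -0.075 for genes of their length.

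Promoter windows are shown for 3 of the members past 1.2-fold, on both sides of 0, so that the letters around their start sites can be compared. RefSeq windows (GRCh38.p14, 250 bases before to 50 after the annotated start) were matched for 42 of the 53 matrix genes, 20 of them detected. The detected members without a window were HAS2 and LOXL2, both past 1.2-fold, and AGRN, MATN2 and SDC2. Those of NID1 (chr1:236065041-236065340), GPC4 (chrX:133415440-133415739) and SDC4 (chr20:45348375-45348674), all on the minus strand, are shown 5′ to 3′ with motif matches in capitals. Each motif was searched on both strands, without overlap between different motifs in these windows. The GC box was searched as GGGCGG, the site bound by Sp1. The TATA box, which places the start of transcription, was searched as TATAAA. The site of the AP-1 factors Fos and Jun was searched as TGANTCA. The E-box of the Myc family was searched as CACGTG.
NID1: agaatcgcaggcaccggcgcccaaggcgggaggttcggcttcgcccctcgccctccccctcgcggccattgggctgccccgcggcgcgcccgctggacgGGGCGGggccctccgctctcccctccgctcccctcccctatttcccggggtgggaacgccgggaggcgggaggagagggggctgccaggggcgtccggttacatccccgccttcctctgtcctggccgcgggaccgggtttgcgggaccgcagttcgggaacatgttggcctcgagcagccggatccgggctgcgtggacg
GPC4: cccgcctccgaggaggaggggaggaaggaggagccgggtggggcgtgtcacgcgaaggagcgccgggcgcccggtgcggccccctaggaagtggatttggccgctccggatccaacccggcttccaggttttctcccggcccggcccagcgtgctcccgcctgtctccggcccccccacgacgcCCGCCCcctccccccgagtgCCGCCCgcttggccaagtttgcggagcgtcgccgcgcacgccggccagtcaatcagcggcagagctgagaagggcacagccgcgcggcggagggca
SDC4: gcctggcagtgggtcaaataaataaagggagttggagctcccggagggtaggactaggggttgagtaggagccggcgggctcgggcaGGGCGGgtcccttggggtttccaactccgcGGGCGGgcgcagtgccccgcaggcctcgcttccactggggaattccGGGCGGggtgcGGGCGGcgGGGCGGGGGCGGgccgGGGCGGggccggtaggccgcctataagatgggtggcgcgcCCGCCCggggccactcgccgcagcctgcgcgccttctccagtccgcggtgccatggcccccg
In all 3 windows the capitals mark GC boxes, 1 in NID1, 2 in GPC4 and 8 in SDC4, and none of the other letters was found there. Of other members past 1.2-fold that had a window, CD44 (-0.325) had 2 GC boxes and HAS3 (0.265) had 1. HSPG2, which differed by 0.175, had 10. A link between the number of GC boxes and the direction of a difference was not tested.

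GC boxes were common in these genes on either side of 0. The GC box letters were in 18 of the 20 windows of detected matrix genes (90.0%), in 73.6% of 5846 windows of detected genes and in 44.6% of all 27305 windows of this length. The TATA box letters were in 1 of the 20 windows, against 4.70% of detected genes and 12% of all windows, and the AP-1 letters were in 0 of 20, against 4.0% of detected genes and 7.76% of all. The E-box letters were in 2 of 20, HAS3 and FBN2, against 10.3% of detected genes and 7.43% of all. The median GC content of the 20 windows was 72.2%, against 65.8% for detected genes. A match describes letters in the window and not a bound site.

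Other genes of matrix assembly and turnover were mostly near the median of all detected genes (-0.035). In collagen folding and secretion, 13 of 21 listed genes were named and 12 detected, with 0 at least 1.2-fold higher, 2 at least 1.2-fold lower and a median of -0.07. The lower genes were TMEM38B, an endoplasmic reticulum cation channel needed for collagen synthesis, at 9.16 in miR-95 cells and 9.57 in control cells, and KLHL12, a ubiquitin ligase adaptor for large procollagen carriers, at 8.82 and 9.18. The collagen prolyl 3-hydroxylase P3H1 differed by 0.115, and CREB3L1, a transcription factor for collagen genes, had the highest value among the detected genes at 0.185. Of procollagen processing and cross-link genes, 7 of 14 were named and 4 detected, and 0 passed 1.2-fold either way. Their range was from TLL1, a procollagen protease, at -0.195 to PCOLCE, an enhancer of such proteases, at 0.195, with a median of -0.065.

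Of 28 heparan sulfate genes, 23 were named and 10 detected, and of the detected genes 1 was at least 1.2-fold higher and 1 lower, with a median of -0.045. NDST1, which starts sulfation of the chain, read 9.26 in miR-95 cells and 8.87 in control cells, 1.28-fold higher. HPSE, the heparanase that cuts the chain, read 8.34 in miR-95 cells and 8.73 in control cells, 1.34-fold lower. Of the 13 dim genes of this list, 11 were negative (median -0.125), against 3678 of all 6783 dim genes (median -0.015). Some of the 11 lay within 0.035 of 0, where the sign depends on the centring. At 1.2-fold, 4 of the 13 were lower and 1 higher, against the 11.4% lower and 7.71% higher of all dim genes. The lowest was EXTL3, a chain-starting glycosyltransferase, at -0.415. Of matrix receptors, 8 of 29 were named and 4 detected, with HMMR the only detected one past 1.2-fold, CD151 (0.025) the highest of the detected and their median at -0.025. The 4 dim receptors ran from -0.255 (DDR2) to 0.355 (LYVE1).

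Matrix proteases and their inhibitors had a median of 0.135 over 9 detected of 22 named and 33 listed. The collagenase MMP1 read 9.06 in miR-95 cells and 8.75 in control cells, 1.21-fold higher, and was the only detected one past 1.2-fold. The collagenase MMP13 differed by 0.255, and TIMP2, an inhibitor, was the lowest of the detected at -0.205. The 13 dim members ran from -0.415 (MMP24) to 0.275 (MMP25). Read against the shares of 5.48% higher and 8.45% lower over all detected genes, lists with 0 to 2 members past the limit give no result about the list.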

How the data were processed

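Total RNA of both lines was hybridised to 1 Affymetrix gene array each, per the labels' protocols. The deposited values are log2 expression for 23641 probe sets, and the scale was inferred from their range of 1.79 to 13.83 in miR-95 cells and 1.94 to 13.84 in control cells. The submitters' processing notes name Affymetrix Expression Console 1.2. How background, summarisation and scaling were done is not given in the sources used. The depth of an array is not a count, and the number of arrays limits precision.

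Platform annotation gave 1 symbol to 14088 probe sets, several to 0 and none to 9553. All 13864 genes matched RefSeq (GRCh38.p14) by Entrez identifier. Probe sets of a gene were averaged and each array was centred on its gene median. Limits were 1.2-fold and 1.5-fold. The steps were run on simulated arrays with planted differences, which checks the calculation and not how reliable a fold is between cultures. Python 3.11.15, numpy 2.4.6, pandas 2.3.3 and statsmodels 0.14.6 were used.

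Named genes are detected matrix genes past 1.2-fold, the extremes of each role, dim genes past 1.5-fold, LOXL2, LOX, CD44 and LUM, and the extremes of the other lists. Further matrix genes are named so that each is accounted for, and further genes of the other lists and markers (P3H1, KLHL12, EXTL3, DDR2, LYVE1, MMP24, MMP25, MMP13, CEMIP, CEMIP2, KRT8, VIM, KLK2, KLK3, CD68, CLDN5, KDR, VWF, CD14, DCN, THY1 and DES) after their values were seen. Members and lists were chosen with earlier results of these data known. The 11 alternatives covered centring, quantile, loess, gene span, probe-set choice, detection and an offset.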

Additional observations from a re-analysis of the deposited data

How the results depend on the processing

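No paired analysis was possible because each group holds 1 array. The 15 matrix genes followed through 11 alternatives gave 165 values, of which 164 moved by less than the 0.126 spread of a single probe set. The exception was LUM, at -1.01 with the offset of 32. Many of the 165 values could not move, because alternatives that change only the detection rule leave every gene's difference as it was. Probe-set choice could move only GPC1 beyond a small recentring, since every other member had 1 probe set. No gene past 1.2-fold changed sign, whereas GPC1, THBS1 and MATN2, all near 0, did. The count of matrix genes at least 1.2-fold lower was 5 both with dim genes kept and with a detection limit at the 25th percentile, where LUM and HAS2-AS1 were added, and 1 (SDC4) at the 75th percentile. The count at least 1.5-fold lower was 2 with no filter and at the 25th percentile, through LUM. It was 0 at the 75th percentile and when both arrays had to reach their median, since HAS2 left the set, and 0 with the offset, where HAS2 was at -0.55. The count at least 1.5-fold higher was 0 at the 75th percentile, where NID1 left the set. HAS3 fell short of 1.2-fold with the offset (0.26), and CD44 after adjustment for gene span (-0.25). Without centring the same 4 higher and 3 lower matrix genes passed 1.2-fold, while the shares over all detected genes became 7.09% higher and 6.07% lower. Negative matrix genes then numbered 7 of 25 with a median of 0.07, against 48.0% negative and a median of 0 over all detected genes. Signs of differences within 0.035 of 0 therefore depend on the centring.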
